A study of Mus musculus with 6 samples.

Results

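The purine genes described here are the enzymes that make, salvage and break down purines, the carriers that move purine bases and nucleosides across membranes, and the receptors for extracellular ATP and adenosine. They were followed in BV2 cells, an immortalised mouse microglial line, after exposure to adenine. The array's annotation writes symbols in capitals (APRT, ADSS, PPAT), given below in mouse style. The members were a fixed list of 36 enzyme and carrier genes plus every P2X, P2Y and adenosine receptor gene named in the array's probe annotation. The rule itself uses no measured value, but the list was chosen with earlier results of these data known. Probes were found for 33 of the 36 listed genes and for 8 receptor genes, giving 54 probes for 41 genes among 26423 probes. Ahcy, Atic and Impdh2 had no named probe, and neither had any P2Y receptor or any adenosine receptor other than Adora3, so they were not analysed here. Of the genes, 8 were represented by more than 1 probe, and each probe is given separately.

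Cells build purine nucleotides on a ribose phosphate backbone, PRPP, until the first complete nucleotide, IMP, is reached, and IMP is then converted to AMP or GMP. A cheaper route salvages free bases. Adenine itself is used by 1 enzyme, adenine phosphoribosyltransferase (Aprt), which joins it to PRPP to give AMP, and AMP and related nucleotides inhibit the first step of the synthesis pathway. In microglia, ATP and adenosine outside the cell also act as signals, read by P2X channels, P2Y receptors and adenosine receptors.

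The study held 3 groups of 2 arrays each: untreated BV2 cells, BV2 cells given a lower adenine dose and BV2 cells given a higher adenine dose, all for 1 h. Sample titles and the treatment protocol give the doses as 20 and 80 µM, while the sample characteristics give 80 and 250 µM, so only their order is used. The cells are 1 line in culture. Whether replicate arrays stem from different dishes is not stated, and if they share a dish, all errors and p-values below reflect technical spread alone. Values are background-subtracted spot intensities in scanner units, quantile-normalized between arrays, and a change is a difference in log2 intensity with its standard error (SE) from a limma fit to all 6 arrays. With 2 arrays per group, that number limits the precision of every value. A gene's intensity cannot be set against another gene's, because each probe binds with its own strength. Since bulk RNA was measured, fewer cells expressing a gene and less RNA per cell cannot be told apart.

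The labels' cell type was checked against marker genes. Probes above the median probe numbered 12 of 15 for microglia and macrophages, 7 of 9 for oligodendrocytes, 5 of 10 for endothelium, 3 of 9 for lymphocytes, 2 of 5 for neurons, 2 of 9 for astrocytes and 0 of 8 for fibroblasts. Since probes differ in binding strength, these counts do not settle the cell type. Among the microglial markers, Cx3cr1, Gpr34 and Fcrls did not lie above the median probe, and Fcrls read 3.7 to 10.7 units over the 6 arrays. The summed intensity of the microglial probes ranged from 94869 to 102251 in control cells, from 94213 to 100532 at the lower dose and from 132052 to 145299 at the higher dose. Its brightest probes were Cd68, Fcgr3 and Trem2. Over the 15 probes the median change at the higher dose against control was -0.13, with 8 values negative, and Aif1, Itgam and Fcgr3 rose while Mertk fell. Their part in the purine changes was not tested. Over the probes above the median, Pearson's r was 0.9894 within the higher-dose pair, 0.9287 to 0.9406 between that pair and the remaining arrays, and 0.9782 to 0.9858 among the control and lower-dose arrays. This separation of whole arrays stands beside every higher-dose change below. No member read under 1 unit or at 65000 units or above on any array. Of the 54 probes, 15 did not lie above the median probe, which had a mean near 142 units. Detection flags were not used here, and whether dim probes exceeded background was not tested.

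At the higher dose, purine probes changed in both directions. Against control, 3 of the 54 purine probes passed upward and 7 downward, with an adjusted p under 0.05 taken as passing. Among all probes on the array, 5.55% rose and 5.06% fell, 10.6% in all, against 18.5% of the purine probes. At an unadjusted p under 0.05 the limma fit gave 22 purine probes and 29.1% of all. Brighter probes were called more often, and among those above the median probe the shares were 23.1% of 39 purine probes and 17.0% of all. The median change was -0.16 over the 54 purine probes and -0.01 over all probes. Probes for Aprt, the surface nucleotidase Nt5e and the ATP-gated channel P2rx7 rose. Those for the synthesis enzymes Ppat and Adss, the salvage enzyme Mtap, the AMP deaminase Ampd2, the carrier Slc43a3 and the kinase Ak3, with 2 probes, fell. The count of 10 probes was 0 when either control array or either higher-dose array was left out of the limma fit, where 15 to 20 purine probes had an unadjusted p under 0.05, and it was 4 without either lower-dose array. It was also 5 on intensities as deposited and 4 when lower-dose arrays were dropped from the fit.

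Set against the lower dose, the higher dose had 4 purine probes called upward and 7 downward, 20.4% in all, with 6.78% and 6.95% of all probes called in those directions (13.7% in all). Above the median probe the shares were 25.6% of the purine probes and 21.9% of all, and at an unadjusted p under 0.05 there were 24 purine probes and 32.1% of all. This comparison uses the same higher-dose arrays as the first. No purine call held in any of the 6 limma fits without 1 array, each of which leaves 1 array in a group. With only the lower-dose and higher-dose arrays in the limma fit, the count of 11 was 0. There, 23 purine probes and 7878 of all 26423 had an unadjusted p under 0.05. At the lower dose against control, 0 of the 54 probes passed in limma, against 0.0114% of all probes (0.00757% upward, 0.00378% downward, and 0.00757% in all above the median probe). At an unadjusted p under 0.05 there were 2 purine probes and 6.36% of all. They were Ppat (log2 0.37 ± 0.14) and 1 of 3 Adora3 probes (-0.55 ± 0.16), both at adjusted p = 0.764. Lower-dose arrays both lay above both control arrays for 5 purine probes and below them for 9, or 9.26% and 16.7%, where all probes gave 18.5% and 16.6%. Both higher-dose arrays lay above the other 4 arrays for 15 purine probes (27.8%) and below them for 17 (31.5%), against 21.0% and 23.0% of all probes.

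**Figure D1:**
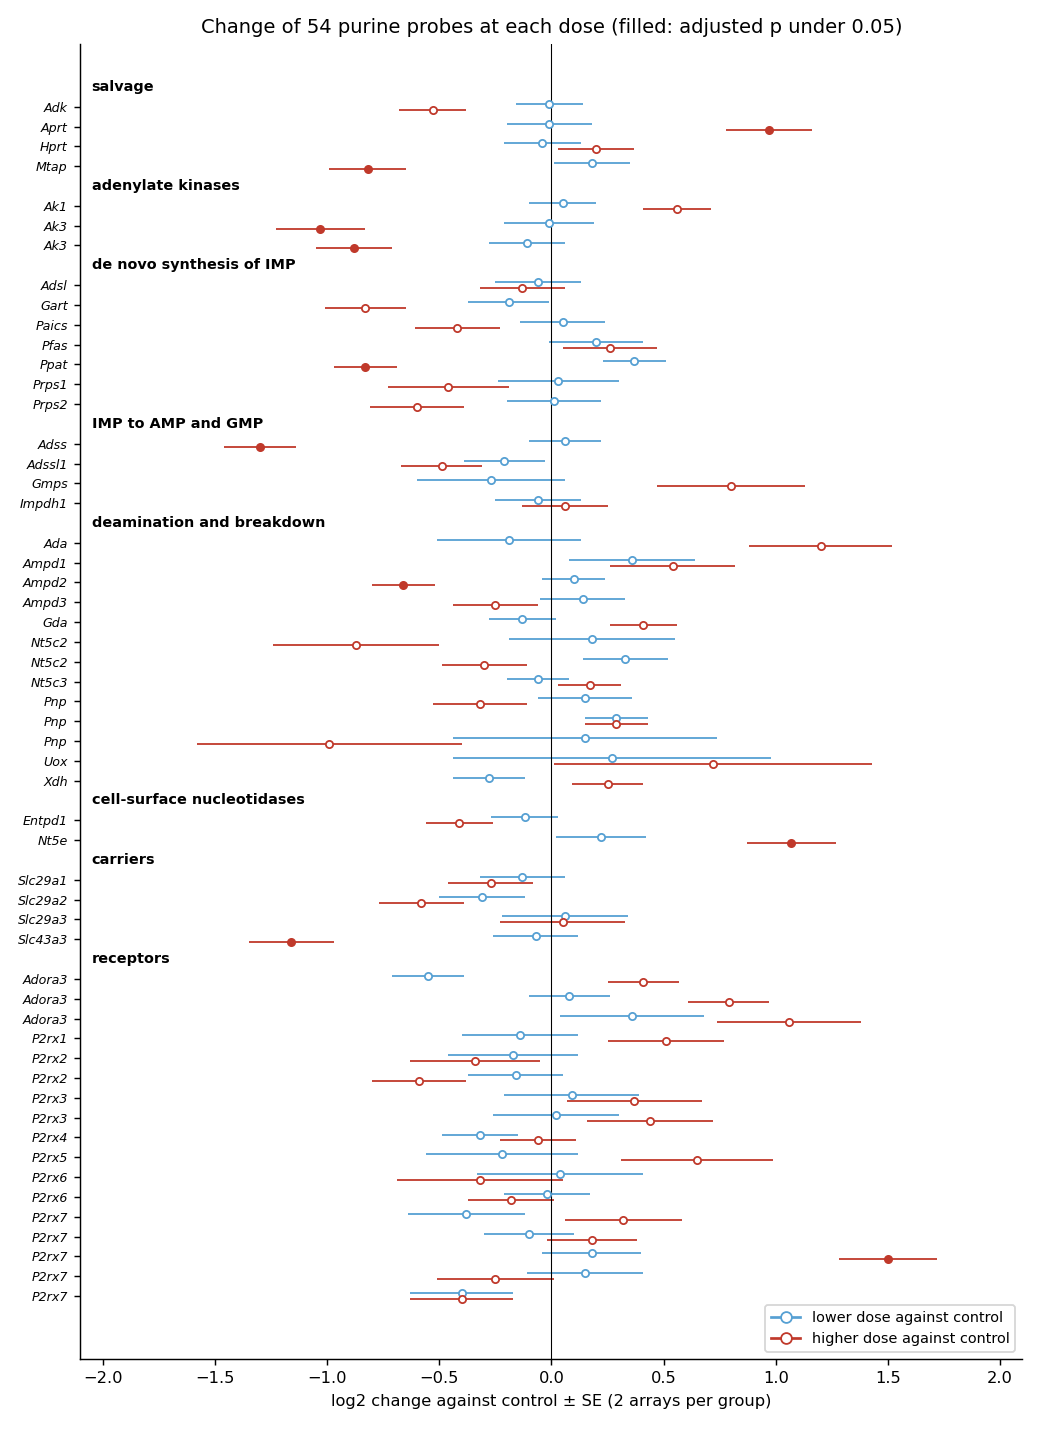
Log2 change of each of the 54 purine probes (rows, by role) against control, at the lower dose (blue) and the higher dose (red), with the SE of the fit as bars and filled points for an adjusted p under 0.05. The 10 filled points all belong to the higher dose and run from -1.30 for Adss to 1.5 for a P2rx7 probe, while lower-dose points lie between -0.55 and 0.37.

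Aprt, the salvage enzyme that acts on adenine, changed at the higher dose. Its probe read 15364 and 13893 units in control cells, 16546 and 12796 units at the lower dose and 27961 and 29190 units at the higher dose. Both higher-dose arrays stood above all others, and the lower-dose arrays enclosed the control arrays. Aprt rose 1.96-fold at the higher dose against control (log2 0.97 ± 0.19, adjusted p = 0.0392), also 1.96-fold against the lower dose (adjusted p = 0.0343). Its lower-dose change was -0.01 ± 0.19.

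Hprt, which salvages hypoxanthine and guanine, read 33271 and 27961 units in control cells, 28694 and 30620 units at the lower dose and 37061 and 33002 units at the higher dose. Of the higher-dose arrays, 1 lay between the controls, and the change did not pass (0.20 ± 0.17, adjusted p = 0.501). Adk, the kinase that turns adenosine into AMP, read 11702 and 11807 units in control cells, 11019 and 12439 units at the lower dose and 8133 and 8192 units at the higher dose. The higher-dose arrays lay below the rest without passing (-0.53 ± 0.15, adjusted p = 0.0872), although Adk did pass under 2 of 15 alternatives, with adjusted p from 0.0213 to 0.354 over all of them.

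Mtap releases adenine from methylthioadenosine, a by-product of polyamine synthesis, and so supplies adenine from within the cell. It read 5998 and 5199 units in control cells, 6566 and 6073 units at the lower dose and 3374 and 2968 units at the higher dose. Mtap fell 1.76-fold against control (-0.82 ± 0.17, adjusted p = 0.0434) and 2.0-fold against the lower dose (-1.0 ± 0.17, adjusted p = 0.0266). Of the salvage enzymes, the probe for the enzyme that uses adenine rose and the probe for the enzyme that releases it fell, each by no more than 2.0-fold.

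**Figure D2:**
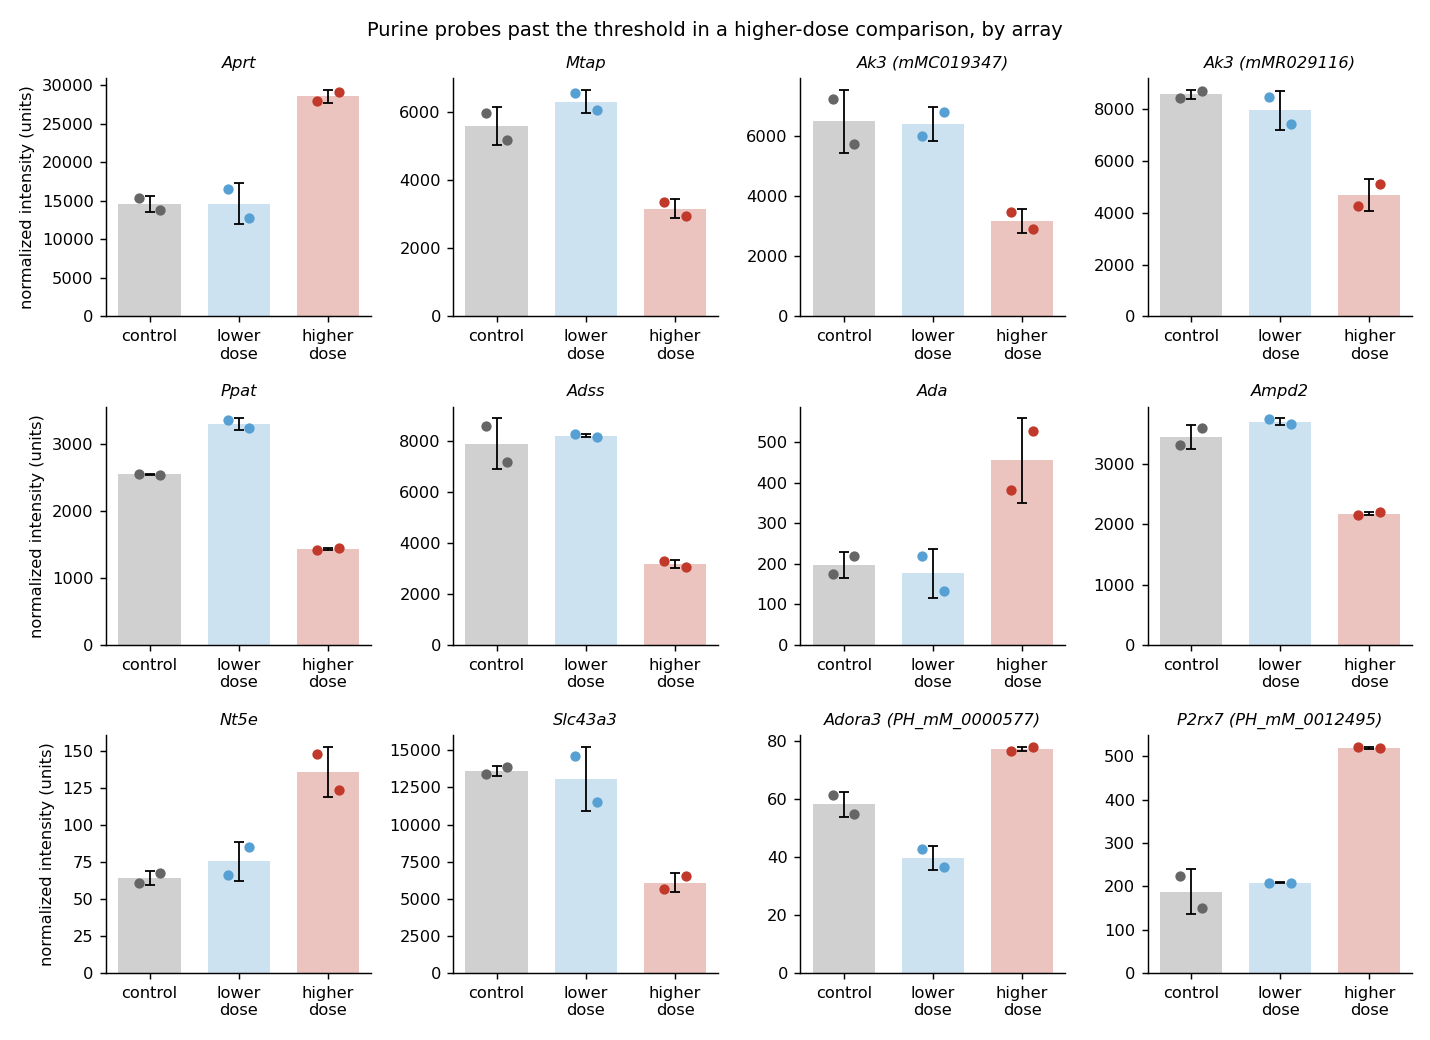
Normalized intensity in scanner units (vertical axes start at 0) of the 12 purine probes that passed in a higher-dose comparison, with each array as a point, the group mean as a bar and the SD of the 2 arrays as an error bar. Aprt reads 27961 and 29190 units at the higher dose against at most 16546 elsewhere, and Adss 3306 and 3080 units against at least 7206 elsewhere.

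Adenylate kinases move phosphate between adenine nucleotides, and Ak3 is the mitochondrial form known for using GTP. Its probe mMC019347 read 7240 and 5754 units in control cells, 6010 and 6816 units at the lower dose and 3470 and 2897 units at the higher dose. Probe mMR029116 of the same gene read 8444 and 8700 units in control cells, 8492 and 7427 units at the lower dose and 4259 and 5115 units at the higher dose. Both fell at the higher dose against control, by 1.03 ± 0.20 and 0.88 ± 0.17 on the log2 scale (adjusted p = 0.0397 and 0.0407). Ak3 is also an older name of Ak4 in the RefSeq table, and the array also holds 3 probes named Ak4, given here for that shared name after their values were seen. Of these, the dim PH_mM_0000576 fell (-1.84 ± 0.35, adjusted p = 0.0369), with 7.7 and 7.5 units at the higher dose against 38.3 and 19.3 units in control cells, while the 2 bright ones did not pass (-0.39 ± 0.21 and -0.42 ± 0.17). Ak1, the cytosolic form, was dim too and did not pass (0.56 ± 0.15, adjusted p = 0.0783), with 97.2 and 105 units at the higher dose against 67.8 and 68.8 in control cells.

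Of the 7 probes for the synthesis of IMP, 1 fell at the higher dose against control and 0 rose. Negative values were found for 6 (median -0.46). Among all probes above the median probe, 17.0% were called and 7090 of 13211 had negative values. Whether the pathway differed from other probes was not tested. Ppat encodes amidophosphoribosyltransferase, the committed step of the pathway. It read 2546 and 2543 units in control cells, 3358 and 3237 units at the lower dose and 1420 and 1445 units at the higher dose. Replicates were close and the 3 groups did not overlap, with the lower dose highest. Ppat fell 1.78-fold against control (-0.83 ± 0.14, adjusted p = 0.0304) and 2.30-fold against the lower dose (-1.20 ± 0.14, adjusted p = 0.018).

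Gart, which carries 3 activities of the pathway in 1 protein, read 10954 and 9409 units in control cells, 8169 and 9645 units at the lower dose and 6133 and 5348 units at the higher dose. It narrowly missed the threshold (-0.83 ± 0.18, adjusted p = 0.0512) and passed under 5 of 15 alternatives (adjusted p 0.00327 to 0.214 over all of them). Paics, a bifunctional enzyme of the middle of the pathway, read 23456 and 21796 units in control cells, 20454 and 26856 units at the lower dose and 17399 and 16519 units at the higher dose (-0.42 ± 0.19, adjusted p = 0.224). The PRPP synthetases Prps1 (-0.46 ± 0.27, adjusted p = 0.338) and Prps2 (-0.60 ± 0.21, adjusted p = 0.14) had negative values, and Adsl stood at -0.13 ± 0.19. Pfas was the 1 probe of the pathway with a positive value (0.26 ± 0.21, adjusted p = 0.478), with higher-dose arrays at 5675 and 5916 units and control arrays at 4042 and 5785 units.

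Ppat and Paics lie head to head on mouse chromosome 5, and in human cells the pair is known to be transcribed in opposite directions from a shared promoter region. In RefSeq's GRCm38.p6 annotation their 5′ ends overlap by 277 bases. At the higher dose against control Ppat was called and Paics was not, and the difference between these 2 genes was not tested. The stretches of 250 bases before each start are shown for this pair because they flank the common region, with matches to 5 motifs in capitals. Each stretch lies inside the other gene, and the 277 bases common to both were neither shown nor searched. The motifs were the GC box GGGCGG, the E-box CACGTG, the CCAAT box CCAAT, the cAMP response element TGACGTCA and the NRF1 element, searched on both strands.
Ppat (chr5:76951579-76951828, minus strand, GRCm38.p6): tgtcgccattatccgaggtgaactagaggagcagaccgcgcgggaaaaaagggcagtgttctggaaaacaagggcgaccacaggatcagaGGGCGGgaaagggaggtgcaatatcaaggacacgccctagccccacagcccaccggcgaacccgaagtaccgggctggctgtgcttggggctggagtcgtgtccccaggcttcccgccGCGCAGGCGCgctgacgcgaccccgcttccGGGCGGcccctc
Paics (chr5:76951052-76951301, plus strand, GRCm38.p6): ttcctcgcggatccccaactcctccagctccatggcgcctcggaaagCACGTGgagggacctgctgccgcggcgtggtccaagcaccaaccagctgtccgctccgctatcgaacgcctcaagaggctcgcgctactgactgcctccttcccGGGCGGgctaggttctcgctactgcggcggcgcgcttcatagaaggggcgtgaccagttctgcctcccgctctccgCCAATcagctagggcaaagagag
The Ppat stretch held 2 GC boxes and 1 NRF1 element, and the Paics stretch held 1 GC box, 1 E-box and 1 CCAAT box. Among all 32851 stretches of this length in the table, 32.7% held a GC box, 3.74% an NRF1 element, 6.02% an E-box and 33.8% a CCAAT box. These matches describe the letters and are not evidence of binding.

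At the branch from IMP, Adss showed the largest fall among the 54 probes. Adss encodes adenylosuccinate synthase, which commits IMP to AMP. It read 8620 and 7206 units in control cells, 8274 and 8176 units at the lower dose and 3306 and 3080 units at the higher dose. Every higher-dose value was under all others. Adss fell 2.47-fold against control (-1.30 ± 0.16, adjusted p = 0.0204) and 2.58-fold against the lower dose (-1.37 ± 0.16, adjusted p = 0.018), and its lower-dose change was 0.06 ± 0.16. The muscle-type enzyme Adssl1 read 14092 and 11556 units in control cells, 11508 and 10638 units at the lower dose and 9626 and 8616 units at the higher dose, and did not pass (-0.49 ± 0.18, adjusted p = 0.144). On the GMP side, Impdh1 (0.06 ± 0.19, adjusted p = 0.878) and the dim Gmps probe (0.80 ± 0.33, adjusted p = 0.19) did not pass.

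The stretches before the starts of Aprt and Adss are shown because these genes, both of enzymes that feed AMP, moved in opposite directions at the higher dose, with the same motifs in capitals.
Aprt (chr8:122576908-122577157, minus strand, GRCm38.p6): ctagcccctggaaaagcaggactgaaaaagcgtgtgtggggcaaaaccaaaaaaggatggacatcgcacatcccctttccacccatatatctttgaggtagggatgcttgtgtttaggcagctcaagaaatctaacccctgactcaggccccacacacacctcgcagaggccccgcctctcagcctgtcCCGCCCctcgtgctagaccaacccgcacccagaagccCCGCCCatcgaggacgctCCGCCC
Adss (chr1:177796510-177796759, minus strand, GRCm38.p6): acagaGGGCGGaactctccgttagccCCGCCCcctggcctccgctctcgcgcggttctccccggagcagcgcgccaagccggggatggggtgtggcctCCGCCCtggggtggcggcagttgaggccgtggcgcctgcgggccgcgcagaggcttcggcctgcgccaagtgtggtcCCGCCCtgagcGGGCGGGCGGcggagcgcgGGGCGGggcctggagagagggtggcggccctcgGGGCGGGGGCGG
Aprt held 3 GC boxes, all on the opposite strand, and Adss held 9, with 1 overlapping pair. Neither held any of the other 4 motifs. Of 10 genes with a called probe and an available stretch, 8 held a GC box, as did 23 of 34 purine genes with a stretch (67.6%). The difference between these shares was not tested. A gene counted if any of its stretches held the motif, whereas the 32.7% given above counts stretches singly. Of the same 10, 2 held a CCAAT box (Ada and Mtap), 1 an NRF1 element (Ppat), and 0 an E-box or cAMP response element.

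Among the 13 probes for deamination and breakdown, 1 fell at the higher dose against control and 0 rose, where 10.6% of all probes were called. Ampd2, the AMP deaminase that returns AMP to IMP, read 3306 and 3586 units in control cells, 3734 and 3649 units at the lower dose and 2154 and 2194 units at the higher dose. It fell 1.58-fold against control (-0.66 ± 0.14, adjusted p = 0.0498) and 1.70-fold against the lower dose (adjusted p = 0.0333). Ampd3 overlapped between higher dose and control (-0.25 ± 0.19), although 514 and 588 units at the higher dose lay below 703 and 735 units at the lower dose, and the muscle form Ampd1 was dim, between 13.7 and 26.3 units on all arrays.

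Ada, adenosine deaminase, read 174 and 220 units in control cells, 219 and 134 units at the lower dose and 381 and 528 units at the higher dose. Both higher-dose arrays lay above the other 4. The 2.29-fold difference from control did not pass (1.20 ± 0.32, adjusted p = 0.0756), and the 2.62-fold difference from the lower dose did (1.39 ± 0.32, adjusted p = 0.0489). Apart from the fits without 1 array, that call was lost under 5 of 9 alternatives. Its log2 change ran from 1.04 to 1.74 over all 15. Calls of other genes were lost too. Both calls of the Ak3 probe mMR029116 were lost under 5 of 9, and that of Mtap against control under 4. Against control, Ampd2 was lost under 3 of 9 and Nt5e under 3 of 8. Every purine call was lost under 1 or more of these alternatives.

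Purine nucleoside phosphorylase, Pnp, splits inosine and guanosine, and none of its 3 probes passed (adjusted p 0.252 to 0.387). Probe mMC014952 read 280 and 278 units in control cells, 349 and 273 units at the lower dose and 196 and 255 units at the higher dose (-0.32 ± 0.21). Probe mMR030471 read 170 and 177 units in control cells, 210 and 214 units at the lower dose and 209 and 215 units at the higher dose (0.29 ± 0.14), both doses lying above control. The dim probe mMR031060 was scattered, with 13.5 and 32.5 units in control cells, 20.0 and 27.0 units at the lower dose and 6.8 and 16.3 units at the higher dose (-0.99 ± 0.59). Mice carry a second gene, Pnp2, next to Pnp, and the probes' specificity between them was not examined.

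The remaining enzymes of breakdown did not pass in either higher-dose comparison. Guanine deaminase, Gda, read 233 and 219 units in control cells, 200 and 214 units at the lower dose and 310 and 290 units at the higher dose (0.41 ± 0.15, adjusted p = 0.146). Xanthine dehydrogenase, Xdh, stood at 0.25 ± 0.16 against control and 0.53 ± 0.16 against the lower dose (adjusted p = 0.361 and 0.0871). The cytosolic nucleotidase Nt5c2 had a bright and a dim probe at -0.30 ± 0.19 and -0.87 ± 0.37, and Nt5c3 stood at 0.17 ± 0.14. Urate oxidase, Uox, was dim and scattered, from 14.8 to 62.5 units in control cells alone.

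On the cell surface, Entpd1 (CD39) removes phosphates from ATP and Nt5e (CD73) turns the resulting AMP into adenosine. Nt5e read 61.3 and 67.8 units in control cells, 66.1 and 85.0 units at the lower dose and 148 and 124 units at the higher dose. It rose 2.1-fold against control (1.07 ± 0.20, adjusted p = 0.037), a change that did not pass against the lower dose (0.85 ± 0.20, adjusted p = 0.0519). The probe is dim, at the 40.7th percentile of all probes by mean log2 intensity. Entpd1 read 302 and 322 units in control cells, 300 and 277 units at the lower dose and 228 and 241 units at the higher dose, below the other 4 arrays without passing (-0.41 ± 0.15, adjusted p = 0.143).

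Of the 4 carriers, Slc43a3 fell and the 3 equilibrative nucleoside transporters did not pass. Slc43a3 carries purine bases, adenine among them, into cells. It read 13387 and 13855 units in control cells, 14589 and 11514 units at the lower dose and 5648 and 6544 units at the higher dose. The higher-dose arrays lay below all others. Slc43a3 fell 2.24-fold against control (-1.16 ± 0.19, adjusted p = 0.028) and 2.13-fold against the lower dose (-1.09 ± 0.19, adjusted p = 0.0276). Against control, Slc29a1 stood at -0.27 ± 0.19, Slc29a2 at -0.58 ± 0.19 and the intracellular transporter Slc29a3 at 0.05 ± 0.28, with adjusted p of 0.412, 0.113 and 0.93. Higher-dose arrays lay below both controls for Slc29a1 (3952 and 4134 units against 4357 and 5474) and for Slc29a2 (511 and 437 units against 718 and 697), while both lay between the controls for Slc29a3 (4836 and 6448 units against 4406 and 6588).

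The 17 receptor probes covered 7 ATP-gated P2X channels and the adenosine receptor Adora3. At the higher dose against control 1 rose and 0 fell, where 5.55% of all probes rose and 5.06% fell. Their median was 0.32, against -0.01 over all probes, but P2rx7 gave 5 of the 17 probes and Adora3 3. Over all members, the 15 probes not above the median probe had a median of 0.51 and the 39 above it -0.27. The part of dimness or repeated probes was not tested. The probe that rose was for P2rx7, the channel known for triggering inflammasome activation in macrophages at high ATP. Probe PH_mM_0012495 read 224 and 151 units in control cells, 209 and 208 units at the lower dose and 521 and 518 units at the higher dose. It rose 2.82-fold against control (1.5 ± 0.22, adjusted p = 0.0255) and 2.49-fold against the lower dose (1.32 ± 0.22, adjusted p = 0.0275).

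The other 4 P2rx7 probes did not follow. Probe PH_mM_0001524 read 1657 and 2274 units in control cells, 1704 and 1313 units at the lower dose and 2135 and 2765 units at the higher dose (0.32 ± 0.26). For PH_mM_0007330 the values were 996 and 955 units in control cells, 1024 and 812 units at the lower dose and 989 and 1238 units at the higher dose (0.18 ± 0.20). For PH_mM_0016096 they were 301 and 391 units in control cells, 440 and 329 units at the lower dose and 250 and 333 units at the higher dose (-0.25 ± 0.26). These probes showed no common direction. For PH_mM_0016197 they were 304 and 276 units in control cells, 267 and 181 units at the lower dose and 222 and 218 units at the higher dose (-0.40 ± 0.23). Adjusted p for these 4 ranged from 0.322 to 0.605, and each overlapped between at least 2 groups. Which P2rx7 transcripts each probe reads is not given in the sources used here, so the rise is that of 1 of 5 probes and not of the gene as a whole.

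**Figure D3:**
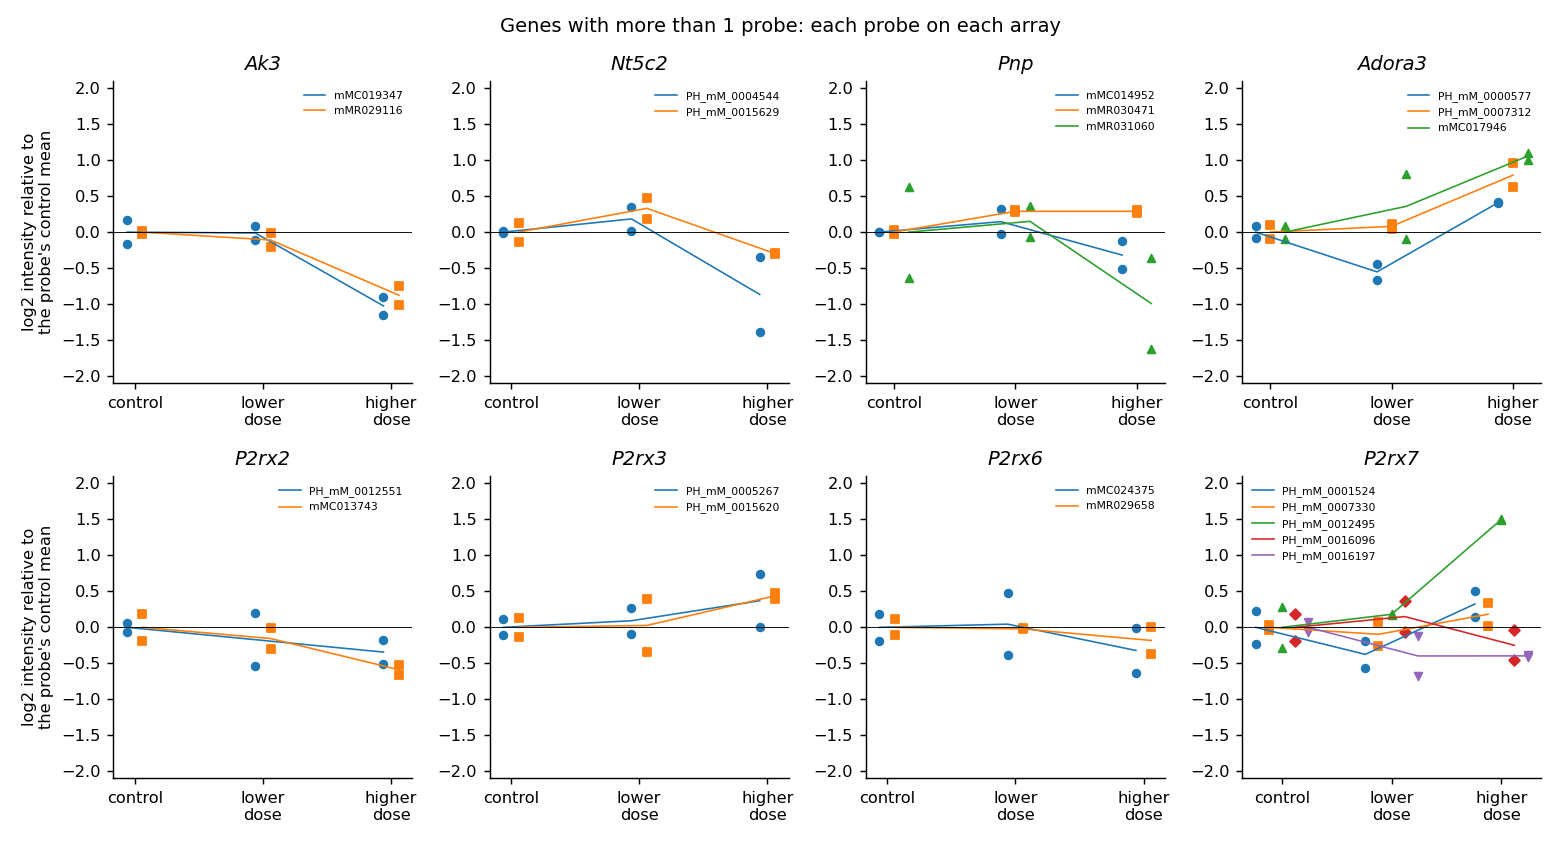
Each probe of the 8 purine genes with more than 1 probe, as log2 normalized intensity relative to that probe's control mean, with arrays as points and lines through group means (control, lower dose, higher dose). The 2 Ak3 probes both end near -1.03 and -0.88 at the higher dose, while 1 P2rx7 probe ends at 1.5 and the other 4 between -0.40 and 0.32.

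Adora3, the adenosine receptor known for degranulation of rodent mast cells, had 3 dim probes. Probe PH_mM_0000577 read 61.3 and 55.0 units in control cells, 42.7 and 36.7 units at the lower dose and 76.7 and 77.8 units at the higher dose. It passed between the doses (0.97 ± 0.16, adjusted p = 0.0267) but not between higher dose and control (0.41 ± 0.16, adjusted p = 0.172). Probe PH_mM_0007312 read 13.5 and 11.8 units in control cells, 13.7 and 13.0 units at the lower dose and 24.5 and 19.5 units at the higher dose (0.79 ± 0.18 against control, adjusted p = 0.0571). Probe mMC017946 read 26.2 and 29.7 units in control cells, 48.8 and 26.2 units at the lower dose and 60 and 56 units at the higher dose (1.06 ± 0.32 against control, adjusted p = 0.0996). Neither passed against the lower dose. On all 3 probes both higher-dose arrays lay above the other 4.

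P2rx4, a channel of activated microglia, read 4151 and 3729 units in control cells, 2915 and 3420 units at the lower dose and 4025 and 3557 units at the higher dose, and the higher-dose and control arrays overlapped (-0.06 ± 0.17, adjusted p = 0.866), while the lower-dose arrays lay below the other 4. The remaining P2X channels gave changes against control from -0.59 for a P2rx2 probe to 0.65 for P2rx5, none past the threshold. P2rx5 control arrays alone spanned 245 and 492 units.

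The higher-dose change also followed gene length on this array, so the members' gene spans are given beside it. Over 18213 probes with a span in RefSeq's GRCm38.p6 annotation, the change against control correlated with span at Spearman's rho = -0.188, and at -0.321 over the 10197 brighter ones. Median changes ran from 0.13 in the fifth of probes with the shortest spans to -0.17 in the second longest. Probes of 1 gene and genes on 1 array are not independent, and the values describe these arrays. Over the 54 purine probes rho was -0.085. Aprt is short, at 2.27 kb, and Adss, Ppat, Mtap and Ak3 span 33.5, 38.3, 43.7 and 53.0 kb, while Nt5e and P2rx7, which have a probe that rose, span 44.5 and 48.4 kb. After the trend with span was removed from each array, 7 of the 10 probes still passed. These were 7 of 54 purine probes, where 2295 of 18213 probes with a span passed. The p-values of that refit were adjusted over those 18213 probes. Aprt stood at 0.78 (adjusted p = 0.0533), Mtap at -0.65 (0.0553) and the Ak3 probe mMR029116 at -0.70 (0.0527). Adss stood at -1.16 (adjusted p = 0.0177), Slc43a3 at -1.09 (0.0257) and the P2rx7 probe at 1.67 (0.0173).

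**Figure D4:**
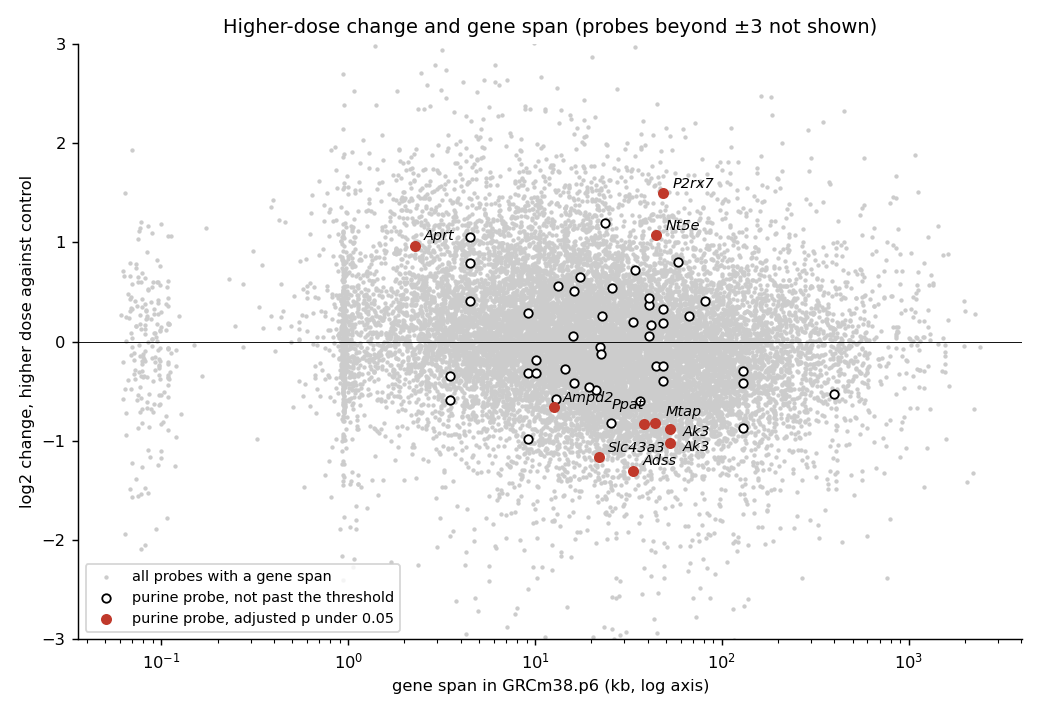
Log2 change at the higher dose against control (vertical axis) by gene span in kb (log axis) for 18213 probes (grey), with purine probes as open circles and those at an adjusted p under 0.05 filled and named. Aprt at 2.27 kb lies to the left of the other filled points, and the called probes that fell span 12.6 to 53.0 kb.

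The 10 lists of neighbouring pathways, given for context and without a test of the list, showed calls in both directions at the higher dose against control. Over all probes, 5.55% rose and 5.06% fell, and among those above the median probe 17.0% were called. Of 16 probes for folate and serine metabolism, which supplies the one-carbon groups of the purine ring, 1 rose and 4 fell (median -0.52). The folate carrier Slc19a1 fell 2.24-fold (-1.17 ± 0.19, adjusted p = 0.0276). The mitochondrial enzyme Mthfd1l fell by 2 of its probes, 1 of which gave the second smallest p of the list (-1.17 ± 0.20, adjusted p = 0.0312). Its probe PH_mM_0012647 (-0.83 ± 0.23) and its dim probe PH_mM_0000845 (0.0 ± 0.23) did not pass.

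Among 12 probes for PRPP and ribose supply, 1 rose and 1 fell (median -0.21). Pgm2, placed in this list by its symbol, fell 2.48-fold (-1.31 ± 0.17, adjusted p = 0.0206), and ribokinase, Rbks, rose 2.49-fold (1.32 ± 0.26, adjusted p = 0.042). Of 16 probes for other nucleotide kinases, 4 rose and 1 fell (median 0.11), with Nme4 and Nme6, of the nucleoside diphosphate kinase family, each at 1.26 (adjusted p = 0.0231 and 0.0248). Among 25 probes for other nucleotide and nucleoside hydrolysis, 2 rose and 2 fell (median -0.10). Nt5c, a nucleotidase acting on deoxynucleotides, rose 2.8-fold (1.49 ± 0.16, adjusted p = 0.0199), and Nt5dc1 fell (-1.18 ± 0.16, adjusted p = 0.0231).

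Deoxynucleotide supply had 1 probe higher and 1 lower of 10 (median -0.47). Deoxycytidine kinase, Dck, rose (0.98 ± 0.16, adjusted p = 0.0282) and the large subunit of ribonucleotide reductase, Rrm1, fell by 1 of its probes (-0.92 ± 0.18, adjusted p = 0.0402). In methionine salvage and polyamine synthesis, 1 of 9 probes rose and 0 fell (Apip, 1.46 ± 0.15, adjusted p = 0.0195). In pyrimidine synthesis and salvage, 1 of 15 rose and 0 fell (the dim Upp1 probe PH_mM_0004245, 1.12 ± 0.18, adjusted p = 0.0275). Another Upp1 probe, PH_mM_0016236, had a negative value and did not pass (-0.54 ± 0.31). Among AMP-activated kinase subunits, 1 of 8 rose and 0 fell (the dim Prkaa2 probe, 1.13 ± 0.21, adjusted p = 0.0353). Of 12 probes for other nucleoside, base and nucleotide transporters, 0 passed. The Mrgpra family, which holds the rodent receptors for adenine, had 2 of 8 listed genes measured, Mrgpra3 and Mrgpra4, and 0 passed. Mrgpra3 read 1055 and 914 units in control cells, 1015 and 1667 units at the lower dose and 2296 and 2170 units at the higher dose (1.18 ± 0.27, adjusted p = 0.0552). Mrgpra4 stood at 0.09 ± 0.18. Whether either of these 2 genes encodes a receptor for adenine was not examined.

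**Figure D5:**
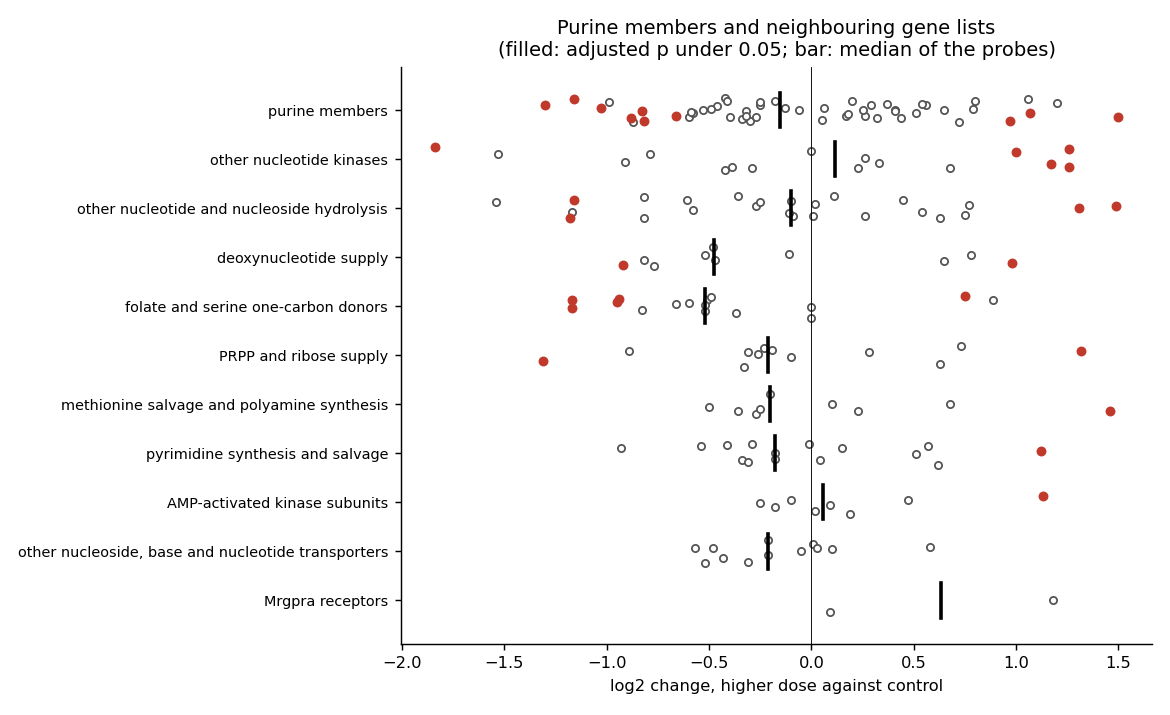
Log2 change at the higher dose against control of the 54 purine probes and of the probes of 10 neighbouring gene lists, with filled points for an adjusted p under 0.05 and a bar at each list's median. Medians run from -0.52 for folate and serine one-carbon donors to 0.64 for the 2 Mrgpra probes.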

How the data were processed

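Cy5-labelled cDNA from BV2 cells was hybridised to single-colour Phalanx mouse OneArrays, as the labels' protocols describe. Deposited values are intensity on a linear scale, background-subtracted since some lie below 0. RMA is named in the submitters' processing notes, but array medians differ (125 to 170 units), so arrays were quantile-normalized, values under 1 set to 1 and log2 taken. The sources used here name no scanner, background method or detection flag. The fit was limma's (version 3.58.1, R 4.3.3): lmFit on all 6 arrays with a mean for each group, leaving 3 residual degrees of freedom, then eBayes, with two-sided p-values adjusted by Benjamini-Hochberg across 26423 probes and a threshold of 0.05. The fit was also run on simulated data with independent noise for each probe and no shift of whole arrays. That run cannot show how the fit behaves where whole arrays separate, as they did here. Figures used Python 3.11.15 and matplotlib 3.10.9.

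Symbols came from the platform annotation, which names 20377 probes and leaves 6046 unnamed here. All 41 member symbols matched a RefSeq table of GRCm38.p6, the build of the promoter sequences. No build is named for the array itself.

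Every member may be named. Per-array values were given for probes called in any comparison and for a fixed set of salvage enzymes, nucleotidases and receptors. Those of other uncalled members (such as Gart, Paics, Pfas, Adssl1, Gda and the Slc29a carriers) were added after their values were seen. Up to 2 genes per neighbouring list were named by smallest p. P2ry6 and P2ry12 of that set had no named probe. Members and lists were chosen with earlier results of these data known. Alternatives were other scalings, log2(value + 16), a filter on dim probes, the replicate number as a block, array weights, a trended prior, only the groups compared, thresholds of 0.10 and 0.01, leaving out each array and, added after seeing the data, removal of the trend with gene span.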

Additional observations from a re-analysis of the deposited data

How the results depend on the processing

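All 21 calls of purine probes in the higher-dose comparisons kept their direction in all 313 refits, and 139 of these stayed past the threshold. The kept direction adds no evidence. For each call the arrays of the groups compared did not overlap, so leaving out or weighting an array could not turn its sign. The replicate block and the trended prior alter the error and not the log2 change. All refits also use the same arrays. The count of purine probes called at the higher dose against control (10) was 5 on values as deposited, 4 with only the groups compared, 15 among probes above the median, 16 and 0 at thresholds of 0.10 and 0.01, and 0 to 4 without 1 array. Against the lower dose (11) it was 16 with log2(value + 16), 18 among probes above the median, 17 with a trended prior, 0 with only the groups compared, 20 and 0 at the other thresholds, and 0 without any 1 array. Over all probes, the count against control (2803) was 4764 with log2(value + 16), 5524 above the median, 5000 with a trended prior, 1615 with only the groups compared, 5262 and 10 at the other thresholds, and 6 to 1589 without 1 array. Against the lower dose (3629) it was 5645, 6163, 5762, 7, 6425 and 7 under the same settings, and 6 to 26 without 1 array. The lower-dose count (3) was 0 with equal medians, array weights, only the groups compared or a threshold of 0.01, 1 above the median and 0 to 9 without 1 array. The fit on probes above the median held fewer probes. Its calls against control were 15 of 39 purine probes and 5524 of 13211 in all. Against the lower dose they were 18 of 39 and 6163 of 13211. Values as deposited shift the median of all probes by 0.22 at the lower dose against control and by -0.25 between the doses. Between the doses, the split over all probes on those values was 1127 higher and 2965 lower. At the higher dose against control the split was 1378 and 1766 with equal medians, 2270 and 2494 with log2(value + 16) and 2301 and 2699 with a trended prior.

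The replicate number as a block called 0 purine probes against control, 3 against the lower dose and 0 at the lower dose. Over all probes these counts were 11, 1395 and 0. Against control, 20 purine probes and 7471 of all 26423 had an unadjusted p under 0.05 in that limma fit. The labels do not say whether arrays of the same number belong together. Over 13211 probes, differences between replicates correlated at 0.313 between higher dose and control. They correlated at -0.226 between the doses and at 0.033 between lower dose and control. No pairing was used in the main fit, and whether replicates share an effect was not tested. Of 44 uncalled purine probes, 8 passed under some alternative and 6 turned sign under some: without 1 array, P2rx4 ranged from -0.14 to 0.03, Uox from -0.33 to 1.75, Slc29a3 from -0.24 to 0.35, Adsl from -0.27 to 0.01 and Impdh1 from -0.03 to 0.14. P2rx4 was 0.02 with the span trend removed, Impdh1 -0.05 on values as deposited, and Impdh1 -0.12 and Nt5c3 -0.01 with equal medians. Without control replicate 1 these were 0.02 (P2rx4), -0.33 (Uox), -0.24 (Slc29a3), 0.01 (Adsl) and -0.03 (Impdh1), and without higher-dose replicate 2, 0.03 (P2rx4) and -0.15 (Slc29a3). The causes were not tested. With 2 arrays per group and no detection flags used, signal over background was not assessed for dim probes such as Nt5e, Adora3, Gmps and Uox.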
